A study of Homo sapiens with 18 samples.

Results

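The 9p21 window of human chromosome 9 (chr9:21400000-22150000, hg19 per the submitters' processing notes) runs from the last interferon alpha genes through MIR31HG and MTAP to CDKN2A, CDKN2B and CDKN2B-AS1. Its members were chosen by position alone, as every annotated repeat copy, of any name, that starts and ends inside the window. The window itself was proposed with calls of these tables in view, so the values below describe it and are not independent support for any pattern in it. The table of the 5-FU experiment held 692 member copies among 2404193 in all, the table of the Nutlin experiment 584 among 1996647, and 560 copies stood in both. RNA came from 18 samples of IMR90 (human fibroblasts from lung, labelled wild type) that form 9 groups of 2. Cells were untreated (fresh medium 12 h before extraction), treated with Nutlin at 5 µM for 6 h, or treated with 5-fluorouracil (5-FU) at 375 µM for 6, 12 or 24 h, and each drug group had DMSO samples of its own time point. Total RNA was sequenced with a stranded kit, and the deposited values are read counts per repeat copy. The tables list no genes, so the labelled cell type was not checked against marker genes here.

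Nutlin keeps the ubiquitin ligase MDM2 off the transcription factor p53, which then accumulates. The pyrimidine analogue 5-FU interferes with thymidylate synthesis and is built into RNA. In the window, MIR31HG is the long noncoding host gene of the microRNA miR-31, and MTAP encodes methylthioadenosine phosphorylase, an enzyme that salvages methionine and adenine. CDKN2A encodes an inhibitor of cyclin-dependent kinases and, from another reading frame, the MDM2 antagonist ARF, while CDKN2B encodes a related kinase inhibitor. CDKN2B-AS1, also called ANRIL, is a long noncoding RNA transcribed from the strand opposite CDKN2B. These genes are known for their part in the arrest and senescence of fibroblasts and for their loss in tumours. Most repeat copies are remnants of LINE, SINE, LTR and DNA elements. A count on a copy inside a gene does not tell a transcript of the repeat itself from spliced or unspliced RNA of that gene. The deposited row names give no strand for a copy, and an annotation of hg19 was not used here. The gene intervals below were therefore set by hand from known positions, and no copy was placed in an exon or an intron. They were chr9:21450000-21560000 for MIR31HG, chr9:21802000-21866000 for MTAP, chr9:21967000-21995000 for CDKN2A and chr9:21995000-22122000 for CDKN2B-AS1, with CDKN2B at chr9:22002000-22010000 inside it. A copy was assigned by its midpoint. In the GRCh38 annotation, MTAP and CDKN2B-AS1 lie on the plus strand and MIR31HG, CDKN2A and CDKN2B on the minus strand. Longer MTAP transcripts in GENCODE v29 run on toward CDKN2A, and a readthrough gene there starts at MTAP and ends within CDKN2B-AS1.

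Copies called after Nutlin lay in MIR31HG, in MTAP and the stretch after it, and in CDKN2B, and the 250 bases before the start site of each of these 3 genes are shown to give their sequence context. They come from RefSeq on GRCh38.p14 and their coordinates were not compared with the hg19 positions of the copies. Positions are chr9:21559799-21560048 on the minus strand for MIR31HG, chr9:21802386-21802635 on the plus strand for MTAP and chr9:22009306-22009555 on the minus strand for CDKN2B, each written 5′ to 3′. Capitals mark matches on either strand to the GC box (GGGCGG), the CCAAT box (CCAAT) and the TATA box (TATAAA).
MIR31HG: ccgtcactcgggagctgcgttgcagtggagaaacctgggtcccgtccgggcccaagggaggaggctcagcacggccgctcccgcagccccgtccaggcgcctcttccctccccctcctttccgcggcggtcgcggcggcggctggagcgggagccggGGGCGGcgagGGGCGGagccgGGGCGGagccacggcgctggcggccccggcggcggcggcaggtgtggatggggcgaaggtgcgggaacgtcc
MTAP: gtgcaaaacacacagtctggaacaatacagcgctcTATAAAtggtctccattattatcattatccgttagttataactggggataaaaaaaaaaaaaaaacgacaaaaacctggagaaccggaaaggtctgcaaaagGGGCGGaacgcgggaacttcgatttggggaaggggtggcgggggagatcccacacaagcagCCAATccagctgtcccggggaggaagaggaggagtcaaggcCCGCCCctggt
CDKN2B: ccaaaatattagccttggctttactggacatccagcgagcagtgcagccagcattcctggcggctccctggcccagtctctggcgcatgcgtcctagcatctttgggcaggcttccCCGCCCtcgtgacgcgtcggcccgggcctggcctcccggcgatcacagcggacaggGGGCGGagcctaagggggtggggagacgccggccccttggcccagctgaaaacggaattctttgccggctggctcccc
The window of MIR31HG held 3 matches to the GC box and that of CDKN2B held 2. That of MTAP held 2 matches to the GC box, 1 to the CCAAT box and 1 to the TATA box. Matches were counted at any position, and the TATAAA of MTAP lies near the end of the window that is far from the start site. The GC content was 78% for MIR31HG, 50% for MTAP and 66.4% for CDKN2B. Of 35116 RefSeq promoter windows of the same length, 42.6% held a GC box, 32% a CCAAT box and 10.7% a TATA box. The p53 half-site, which 5.57% of the windows held, had no match in these 3 windows, which says only that those letters are not there.

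Counts in the window were few and uneven. Libraries of the 5-FU table held 2145 to 5631 window counts, out of library totals of 2412334 (DMSO 12 h replicate 1) to 6290320 (5-FU 24 h replicate 2), and libraries of the Nutlin experiment held 1945 to 2994, out of 9109885 to 11880265. The DMSO 12 h pair had the lowest totals of the 5-FU table. Of the 692 copies in the 5-FU table, 605 had at least 1 count, 120 passed the filter on low counts and were tested, and these 120 held 88.7% of the window's counts. Of the 584 in the Nutlin table, 456 had a count and 48 were tested, with 78.3% of the counts. Levels are given as CPM, counts scaled to a common library size with TMM factors. They are not compared between the tables, which give the untreated samples different counts. LINE copies held 47% of the 5-FU table's window counts from 33.8% of its members, LTR elements held 26.3%, SINEs 13.6%, and DNA transposons and other repeats 13.1%.

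Repeat RNA was spread unevenly over the intervals. Over the whole 5-FU table, the MIR31HG interval held 47.3% of the window's counts, the stretch from MTAP to CDKN2A 21.7%, the MTAP interval 20.4% and the interferon alpha flank 6.68%. Per kb of annotated repeat, the mean level over all libraries of that table was 7.85 CPM in MIR31HG, 5.40 in MTAP, 3.27 in the interferon alpha flank, 2.41 between MTAP and CDKN2A and 2.13 in CDKN2A. It was 0.207 CPM per kb in CDKN2B-AS1 beyond CDKN2B and 0.114 between MIR31HG and MTAP, where 140 copies held 420 counts in all and none was tested. CDKN2B holds only 2 copies, with 9.23 CPM per kb over 0.543 kb of repeat. No copy of CDKN2B-AS1 outside CDKN2B passed the filter.

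Each drug group was compared with its own DMSO group to ask which copies changed. A copy is called at a Benjamini-Hochberg adjusted p under 0.05 over the whole table (edgeR's quasi-likelihood test). Nothing in the labels says that the 2 samples of a group came from separate cultures, so the test measures the spread between these samples, which may be technical. After Nutlin 8 of 48 window copies were called, 1 higher and 7 lower, where 9.57% of all copies tested were called (5.36% higher, 4.21% lower). With 5-FU at 6 h 1 of 120 was called and was lower, where 0.101% of all copies were called (0.0896% higher, 0.011% lower). At 12 h 27 of 120 were called, 12 higher and 15 lower, with 9.71% called among all copies (5.44% higher, 4.27% lower). At 24 h it was 11 of 120, 6 higher and 5 lower, with 4.23% called among all copies (2.42% higher, 1.82% lower). The 12 h count was 11 without DMSO replicate 1, 16 without DMSO replicate 2 or 5-FU replicate 1, and 15 without 5-FU replicate 2. The 24 h count was 5 without DMSO replicate 1 and 4 without DMSO replicate 2. When the 12 h drug libraries were set against DMSO at 6 and 24 h together, 22 copies were higher and 11 lower. With no TMM factors, that is with library totals as the sole scaling, the median log2 change of all copies was -0.36 at 12 h and -0.15 at 24 h. The window then had 9 higher and 22 lower copies at 12 h, and 4 higher and 7 lower at 24 h. The shares of all copies called with left-out libraries, the other control or the other scaling are not given here. These window counts therefore have no background beside them. The median log2 change of the window's copies was -0.26 after Nutlin (0.01 over all copies), and -0.21, -0.59 and -0.01 at 6, 12 and 24 h of 5-FU (0.00, -0.04 and 0 over all copies). In all, 32 copies were called in at least 1 drug comparison and 9 in at least 2. Of the 8 copies called after Nutlin, 6 were also called at 12 h of 5-FU, 5 of them in the same direction, which is 75% of the Nutlin calls and 26.1% of the 12 h calls among the copies tested in both. Of these 48 copies 23 were called at 12 h whatever their Nutlin call, so nothing particular to the shared copies is read from the overlap. These drug comparisons share no control samples.

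**Figure D1:**
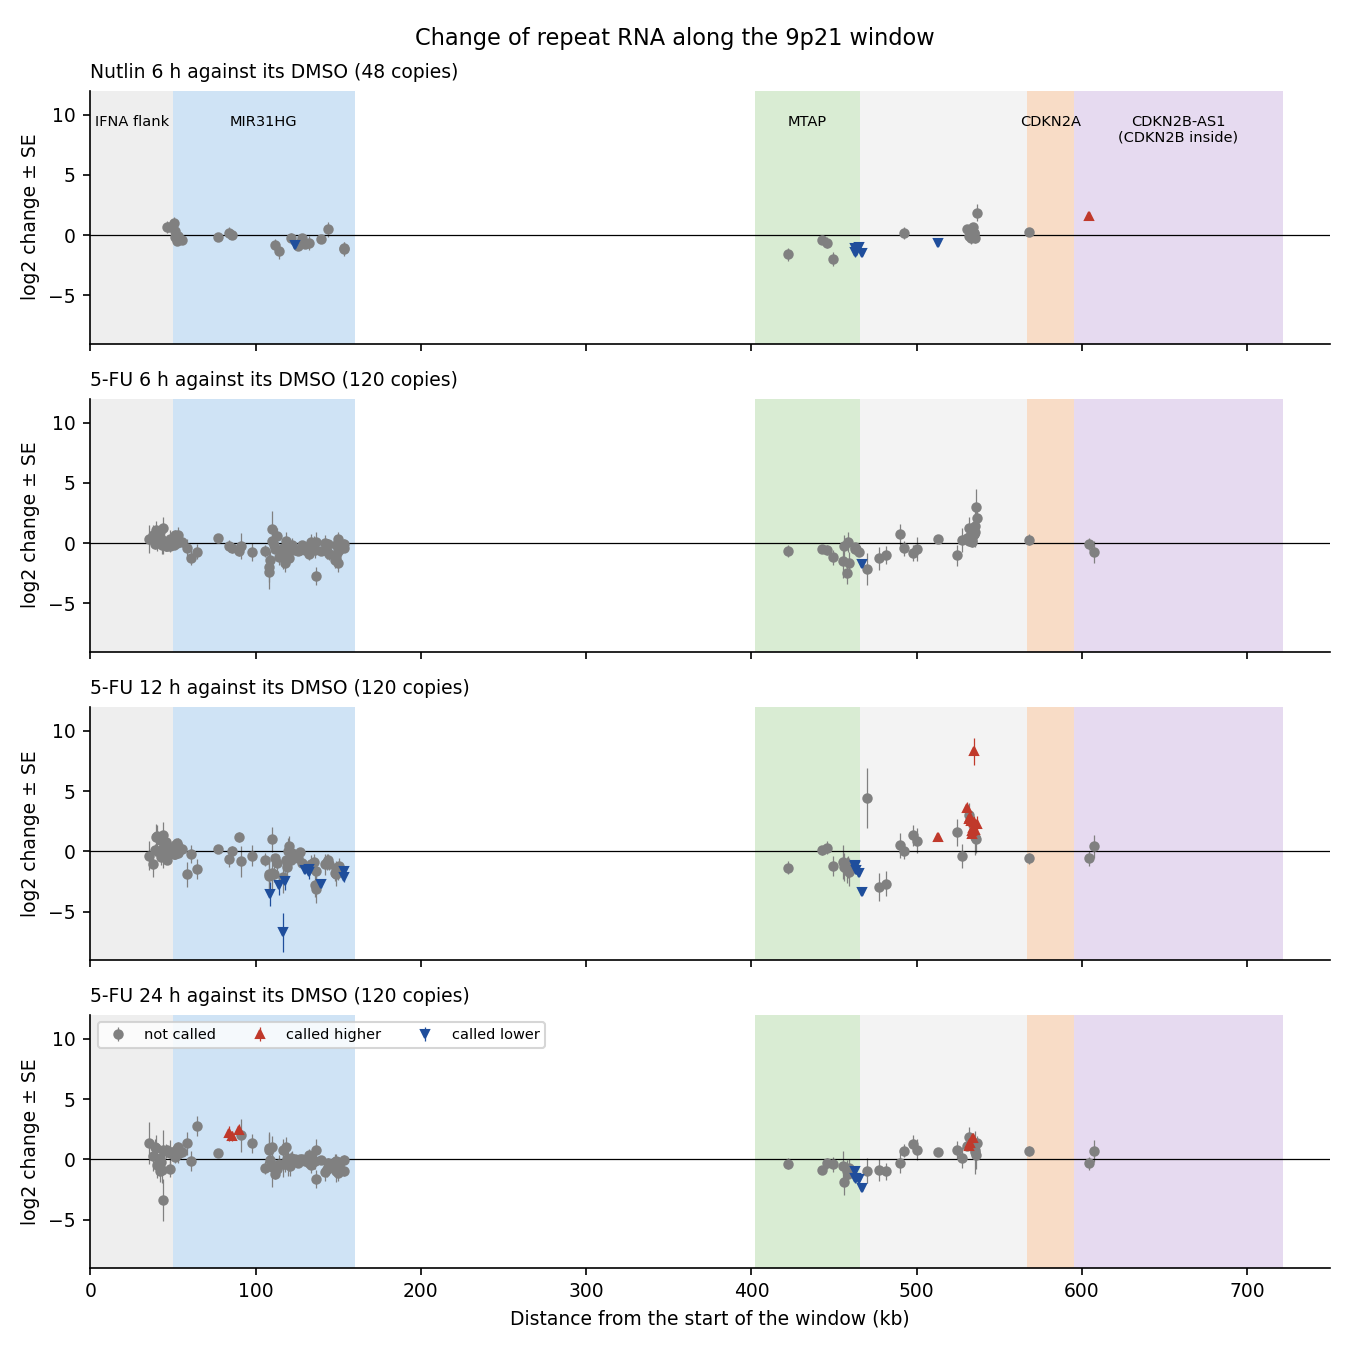
Log2 change (± SE) of each tested repeat copy against its own DMSO group, by distance in kb from the start of the window, for Nutlin (48 copies) and for 5-FU at 6, 12 and 24 h (120 copies each), with shading for the gene intervals. Triangles mark called copies: 5 lower ones lie at the end of MTAP in each of the Nutlin, 12 h and 24 h panels. At 12 h 10 more lower ones lie in MIR31HG, and 11 higher ones lie close together between MTAP and CDKN2A. The points at 8.31 and -6.73 at 12 h are fitted values of copies at 0 in both libraries of one group and measure no fold.

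The interferon alpha flank at the start of the window carried 38 copies and 16 tested ones, led by an LTR49-int copy at chr9:21446794-21447801, an endogenous retrovirus remnant. Its level was 5.51 and 3.89 CPM in the untreated libraries, 24.1 and 20.3 in DMSO 6 h, 16.7 and 22.9 in DMSO 12 h, and 3.18 and 6.71 in DMSO 24 h. All DMSO 6 h and 12 h libraries lay above the untreated ones, and the DMSO 24 h libraries overlapped them. The drug libraries lay near their own controls, with 23.4 and 22.2 CPM after 6 h of 5-FU, 21.2 and 20.6 after 12 h, and 9.03 and 6.50 after 24 h. No copy of the flank was called in a 5-FU comparison or after Nutlin, where 2 were tested. The summed level of the flank showed the same order, with 20.8 and 19.1 CPM untreated, 100.5 and 75.8 in DMSO 6 h, 68.2 and 89.1 in DMSO 12 h, and 18.5 and 23.4 in DMSO 24 h.

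MIR31HG followed this pattern in the control samples of 6 and 12 h, but both of its DMSO 24 h libraries lay above the untreated ones. Its summed level was 260.0 and 195 CPM in the untreated libraries, 541 and 598 in DMSO 6 h, 575 and 637 in DMSO 12 h, and 295 and 324 in DMSO 24 h. The DMSO groups held 2.5, 2.66 and 1.36 times the untreated mean at 6, 12 and 24 h. Against the mean of the 3 DMSO groups, the untreated libraries were compared copy by copy to see what differed without a drug. Of the window's 120 copies 12 were called, all higher with DMSO, where 1.66% of all copies were called (0.643% higher, 1.02% lower). Of these, 9 lay in MIR31HG, and the 3 in the interferon alpha flank were a MER39 copy (log2 1.81 ± 0.34 SE) and 2 LTR49-int copies (1.45 ± 0.31 for the one above), named after their values were seen. Copies can pass the filter on low counts only through the libraries where they are high, so the shared direction of these calls is a description. This comparison shares its DMSO libraries with the 5-FU comparisons. Its count rested on the untreated pair and on the DMSO times: it was 2 without untreated replicate 1, 1 without untreated replicate 2, 7 without DMSO 24 h replicate 2, and 15, 20 and 0 against DMSO 6 h, 12 h and 24 h alone. The shares of all copies called in these other fits are not given here. The labels give the untreated samples fresh medium 12 h before extraction, so DMSO and the time since a change of medium cannot be told apart. Nutlin's own table gave MIR31HG 99.3 CPM in the untreated sample and 119.7 and 96.4 in its DMSO 6 h libraries.

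**Figure D2:**
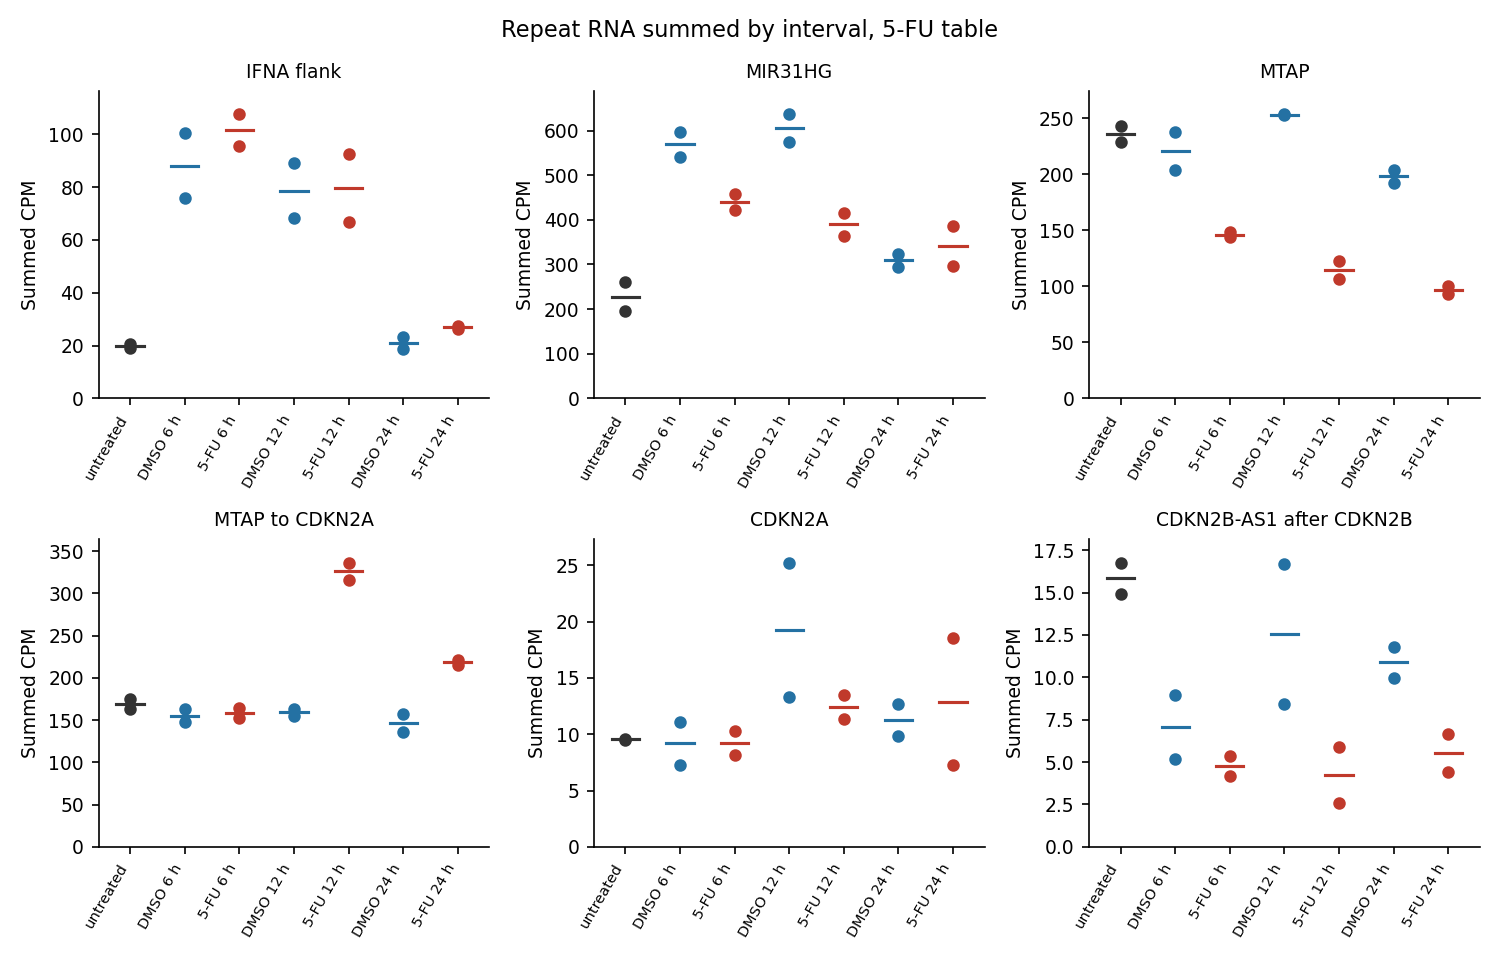
Summed CPM of all repeat copies in 6 intervals of the window, in each library of the 5-FU table (points) with the group mean (bars), untreated in black, DMSO in blue and 5-FU in red. The interferon alpha flank and MIR31HG are high in DMSO 6 h and 12 h against untreated, MTAP is lower in each 5-FU pair than in its DMSO pair, and the stretch from MTAP to CDKN2A reaches 336 and 316 CPM at 12 h of 5-FU.

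Under 5-FU, 10 of 63 tested MIR31HG copies were called lower than DMSO at 12 h and none higher. At 24 h 3 copies toward the 3′ end of this minus-strand gene were called higher. The summed level of the interval was 416 and 364 CPM in 5-FU 12 h. This was below DMSO 12 h (575 and 637) but above the untreated libraries (260.0 and 195). The sums were 423 and 459 CPM in 5-FU 6 h and 298 and 387 in 5-FU 24 h. At 12 h 54 of 63 had a negative change, with a median of -1.03. All 10 calls lay in the part of the interval beyond the HERVH-int copy described below. The lowest p was that of an L1PA2 copy at chr9:21536697-21541947, a LINE-1 of a young subfamily. It stood at 58.6 and 59.7 CPM in DMSO 12 h and 7.35 and 10.7 in 5-FU 12 h (log2 -2.70 ± 0.32). The drug libraries at 12 h were the lowest of the table at this copy, and at 24 h the pairs overlapped, with 38.6 and 48.5 CPM in DMSO and 33.4 and 48.9 in 5-FU. With DMSO of 6 and 24 h as control in place of the 12 h pair, the log2 change of L1PA2 was -2.53. Reads of young LINE-1 copies match many near-identical places, and how the authors placed them is not given in the sources used here, so the position of this fall is uncertain. With that control 5 MIR31HG copies were lower and 6 higher at 12 h. With a library of the comparison left out, the lower ones numbered 2 (without DMSO replicate 1 or 5-FU replicate 2), 4 (without DMSO replicate 2) or 5 (without 5-FU replicate 1). The DMSO 12 h pair had the lowest library totals and also the highest mean in MIR31HG, although it overlapped the DMSO 6 h pair. The part of depth in the 12 h calls was not tested.

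At 24 h the 3 higher copies of MIR31HG were neighbours. A HERVH-int copy, the internal part of an endogenous retrovirus, at chr9:21488395-21491043 stood at 2.06 and 1.03 CPM in DMSO 24 h and 9.96 and 7.28 in 5-FU 24 h (log2 2.46 ± 0.45). Its 5-FU pair was also above the DMSO pair at 12 h, with 9.41 and 9.29 against 4.08 and 4.21 CPM, but below it at 6 h, with 3.43 and 3.99 against 6.87 and 4.69. The difference between the 24 h and 6 h changes was 3.09 on the log2 scale and was the only one called in the window, where 0.385% of all copies were called (0.0865% higher, 0.299% lower). It uses the same DMSO libraries. The others were L1MEc copies at chr9:21483592-21484610 and chr9:21484610-21486268, named after their values were seen, with log2 changes of 2.15 ± 0.61 and 1.93 ± 0.44. The longer L1MEc copy stood at 3.18 and 4.30 CPM in DMSO 24 h and 7.18 and 21.1 in 5-FU 24 h, so replicate 2 of 5-FU carried most of the rise. None of the 3 was called without DMSO 24 h replicate 2, and 1 MIR31HG copy was called without DMSO replicate 1 or without 5-FU replicate 2. Up to and including the HERVH-int copy, 13 of 14 tested copies of the interval were positive at 24 h (median 0.74), against 14 of 49 beyond it (median -0.31). At 12 h, 8 of 14 were negative in the first part with no call (median -0.07). Beyond it 46 of 49 were negative with 10 calls (median -1.36). This division was placed at a called copy after its values were seen and the 3 copies called at 24 h lie in the first part, so these counts only describe where the calls are.

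With Nutlin, 17 of 22 tested MIR31HG copies were negative, with a median of -0.38. The only copy called was an L1PA13 at chr9:21521948-21525145, named here after its values were seen. It held 10.05 and 8.75 CPM in DMSO and 5.46 and 5.31 in Nutlin (log2 -0.80 ± 0.21), and it was not called without DMSO replicate 1, with DESeq2 or with no filter on low counts. The most abundant MIR31HG copy, a MER1B DNA transposon at chr9:21454991-21455299, held 15.02 and 13.9 CPM in DMSO and 11.02 and 10.1 in Nutlin and was not called.

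Repeat RNA of MTAP was lower after each drug. Its summed level was 204 and 237 CPM in DMSO 6 h and 148 and 144 in 5-FU 6 h, 254 and 253 against 122 and 106 at 12 h, and 204 and 193 against 100.5 and 93.1 at 24 h. The sums of the Nutlin experiment were 92.9 and 97.0 CPM in DMSO and 43.4 and 46.7 in Nutlin. The drug pairs did not overlap their DMSO pairs in any of these comparisons, and the log2 ratio of the sums was -1.07 for Nutlin and -0.59, -1.15 and -1.03 for 5-FU at 6, 12 and 24 h. Untreated libraries held 243 and 229 CPM in the 5-FU table. In bulk RNA, fewer transcribing cells and less RNA per cell cannot be told apart.

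Most of this RNA came from 5 neighbouring copies at the end of the gene (chr9:21862189-21867638), which held 17.9% of the window's counts in the 5-FU experiment and 26.6% in the Nutlin experiment. They are a pair of L1ME4a fragments of an old LINE-1, an AluY, a THE1C long terminal repeat and an L1MD3, another old LINE-1 that reaches past the edge set for MTAP and is counted with the stretch after it. The group was delimited by its first and last lower calls at 12 h of 5-FU, so its 12 h counts are a description. After Nutlin 5 of 5 were called lower, at 6 h of 5-FU 1 of 5, and at 12 h and 24 h 5 of 5 each. The other 9 tested MTAP copies of the 5-FU table had no call, and for lower calls at 12 h this follows from the delimitation. Their changes were negative in 8 at 6 h, in 7 at 12 h and in 9 at 24 h.

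The L1MD3 copy (chr9:21865801-21867638) was called in each of the 4 drug comparisons. In the Nutlin table it stood at 14.4 and 18.1 CPM in DMSO and 5.55 and 6.28 in Nutlin (log2 -1.46 ± 0.19), with 16.2 in the untreated sample. In the 5-FU table it stood at 33.9 and 37.5 CPM in DMSO 6 h and 10.5 and 10.8 in 5-FU 6 h (-1.74 ± 0.23). At 12 h it was 61.2 and 61.2 CPM in DMSO and 6.47 and 5.23 in 5-FU (-3.38 ± 0.26). At 24 h it was 26.4 and 27.7 CPM in DMSO and 5.79 and 4.80 in 5-FU (-2.36 ± 0.25). All 6 drug libraries of the 5-FU table lay below all 8 control libraries, the untreated ones included (43.8 and 40.6 CPM). The DMSO 12 h pair was the highest of the controls, and with DMSO of 6 and 24 h as control the 12 h change was -2.41 and still called. Each call held in all alternatives run for it.

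The first L1ME4a copy (chr9:21862189-21862614) was the most abundant copy of the interval, with 44.8% of its counts in the 5-FU table. It held 47.1 and 49.5 CPM in DMSO and 19.8 and 25.6 in Nutlin (log2 -1.10 ± 0.13). With 5-FU at 12 h it held 63.8 and 50.5 CPM against 115 and 132 in DMSO (-1.11 ± 0.23), and at 24 h 50.04 and 34.4 against 87.2 and 78.6 (-0.98 ± 0.22). At 6 h it held 69.9 and 62.4 CPM against 81.8 and 105.6 in DMSO and was not called (-0.50 ± 0.22). The drug libraries were below their DMSO libraries at every time. The THE1C copy (chr9:21865071-21865441) held 14.0 and 17.1 CPM in DMSO and 7.23 and 8.21 in Nutlin (-1.02 ± 0.18), and with 5-FU 13.5 and 13.1 against 46.7 and 45.5 at 12 h (-1.79 ± 0.25) and 11.6 and 8.36 against 33.3 and 26.3 at 24 h (-1.59 ± 0.24). The AluY copy (chr9:21863325-21863635) changed by -1.40 ± 0.24 with Nutlin, -1.58 ± 0.32 at 12 h and -1.55 ± 0.32 at 24 h, and the second L1ME4a copy (chr9:21862763-21862894) by -1.44 ± 0.36, -1.23 ± 0.33 and -1.59 ± 0.34. AluY is a young SINE family, so its reads may belong elsewhere.

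All 5 copies were negative in each drug comparison under every alternative, and 5 of 5 were called after Nutlin whichever library was left out. With 1 library left out at 12 h the number called was 2 without 5-FU replicate 2, 3 without DMSO replicate 1 and 4 without either of the others. At 24 h it was 3 without 5-FU replicate 2 or DMSO replicate 1, 4 without DMSO replicate 2 and 5 without 5-FU replicate 1. It was 4 at 12 h with DMSO of 6 and 24 h as control, and 2 at 24 h with only the libraries of that comparison in the fit.

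**Figure D3:**
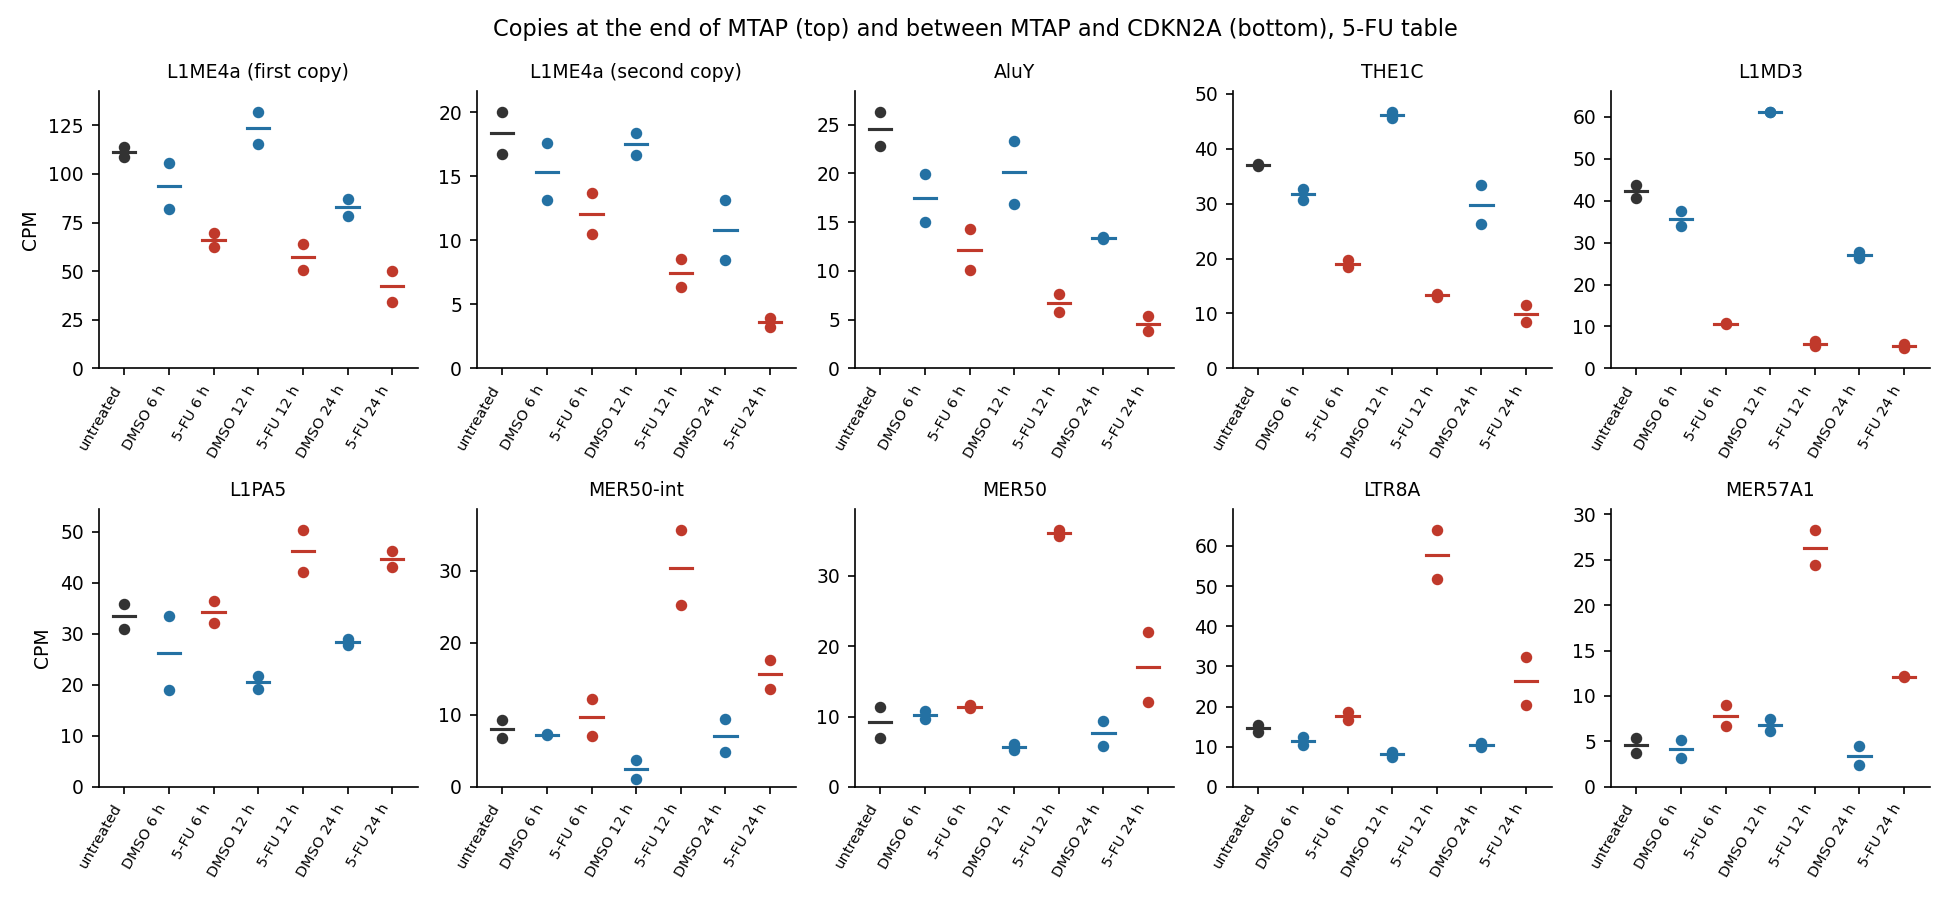
CPM per library of the 5-FU table (points, with group means as bars) for the 5 copies at the end of MTAP (top) and for the 5 most abundant copies called higher at 12 h between MTAP and CDKN2A (bottom), with 5-FU in red, DMSO in blue and untreated in black. At L1MD3 the 6 drug libraries lie between 4.80 and 10.8 CPM and the controls between 26.4 and 61.2, while LTR8A reaches 51.7 and 63.9 CPM at 12 h of 5-FU.

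Between MTAP and CDKN2A the direction turned. The summed level of this stretch was 163 and 155 CPM in DMSO 12 h and 336 and 316 in 5-FU 12 h, and 136 and 157 in DMSO 24 h against 221 and 216 in 5-FU 24 h, with no overlap at either time. At 6 h the pairs overlapped, with 163 and 147 CPM in DMSO and 165 and 153 in 5-FU. In the Nutlin table they overlapped as well, with 76.6 and 89.2 CPM in DMSO and 74.0 and 79.7 in Nutlin. At 12 h 12 of 25 tested copies were called higher, and the lower one was L1MD3. The 10 tested copies between L1MD3 and the LTR elements described next held 1 call at 12 h.

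That call was an L1PA5 copy at chr9:21910908-21914793, the most abundant copy of the stretch. It held 19.3 and 21.8 CPM in DMSO 12 h and 50.3 and 42.1 in 5-FU 12 h (log2 1.17 ± 0.26). After Nutlin the same copy was called lower, with 12.9 and 16.3 CPM in DMSO and 9.25 and 8.69 in Nutlin (-0.70 ± 0.18). It was the only member called in opposite directions by the drugs. The difference between the drugs was not tested, the tables being separate. L1PA5 is a primate LINE-1 with many similar copies, so its position is uncertain. The 12 h call was lost without DMSO replicate 1 (log2 1.095) and without 5-FU replicate 1 (1.035), and the Nutlin call without DMSO replicate 2 (-0.52), with DESeq2 (adjusted p = 0.154) and with no filter on low counts (edgeR, adjusted p = 0.522).

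Further along the stretch from MTAP to CDKN2A, a run of 14 tested copies over 6.92 kb (chr9:21930150-21937069) was made up of 12 LTR elements and 2 Alu copies. It lies on the 3′ side of the minus-strand gene CDKN2A. The run was delimited by its first and last calls at 12 h, so its counts are a description. The filter on low counts can also pass a copy through the 12 h drug pair alone. Which copies of the run were tested may thus depend on the libraries where they are high. At 12 h 11 of 14 were called higher and the others were positive. At 24 h 3 of 14 were called higher and 14 of 14 were positive, and at 6 h none was called and 14 of 14 were positive. With Nutlin none of 11 tested was called, 7 positive and 4 negative, with a median of 0.17. Summed over the run, the level was 43.0 and 46.3 CPM in DMSO 12 h and 243 and 239 in 5-FU 12 h, 52.0 and 44.9 against 141 and 95.7 at 24 h, and 53.3 and 48.4 against 82.3 and 74.5 at 6 h. The Nutlin table gave 37.8 and 42.2 CPM in DMSO and 47.6 and 49.7 in Nutlin.

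The most abundant member of the run was an LTR8A copy, a long terminal repeat, at chr9:21932125-21932868. It held 7.41 and 8.80 CPM in DMSO 12 h and 51.7 and 63.9 in 5-FU 12 h (log2 2.83 ± 0.29), and 9.92 and 11.01 against 32.4 and 20.3 at 24 h (1.32 ± 0.27). At 6 h it held 12.5 and 10.5 CPM in DMSO and 16.7 and 18.6 in 5-FU and was not called (0.62 ± 0.27). Nutlin libraries held 13.6 and 12.2 CPM against 10.2 and 9.90 in DMSO, also not called (0.37 ± 0.18). The drug pairs were above their DMSO pairs at each time.

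Its neighbours are parts of other endogenous retroviruses. A MER50-int copy (chr9:21930150-21931319) held 3.71 and 1.15 CPM in DMSO 12 h and 35.6 and 25.3 in 5-FU 12 h (log2 3.62 ± 0.47), and the adjoining MER50 copy (chr9:21931320-21931934) 5.19 and 6.12 against 36.5 and 35.7 (2.67 ± 0.36). A MER57A1 copy (chr9:21933961-21934393) held 7.41 and 6.12 CPM against 28.2 and 24.4 (1.95 ± 0.36). These drug libraries lay well above every control library of the table. At 24 h MER50 and MER57A1 were called as well, with 1.15 ± 0.33 and 1.82 ± 0.36, while MER50-int was not (1.14 ± 0.37). An AluSg copy (chr9:21934697-21934997), named after its values were seen, was at 0 in both DMSO 12 h libraries and at 7.06 and 11.03 CPM in 5-FU 12 h.

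With DMSO of 6 and 24 h as control, 13 of the 14 copies were called higher at 12 h, and with size scaling alone 8. With 1 library left out the number was 6 without DMSO replicate 1, 7 without DMSO replicate 2 or 5-FU replicate 1, and 9 without 5-FU replicate 2. The 24 h calls depended on single libraries, with none left without DMSO replicate 2, 1 without DMSO replicate 1, 2 without 5-FU replicate 1 and 4 without 5-FU replicate 2.

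CDKN2A itself had 25 copies with 692 counts in the 5-FU table, of which a MIRc SINE fragment at chr9:21967783-21967866 held 79.6%. It stood at 5.00 and 8.40 CPM in DMSO 6 h and 8.999 and 7.41 in 5-FU 6 h, 11.1 and 24.1 against 12.6 and 10.7 at 12 h, and 7.86 and 5.16 against 16.7 and 4.96 at 24 h. The Nutlin experiment gave it 2.92 and 3.86 CPM in DMSO and 4.49 and 3.74 in Nutlin. Drug and DMSO libraries overlapped in each comparison and none was called, with log2 changes from -0.59 ± 0.46 at 12 h to 0.70 ± 0.46 at 24 h.

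CDKN2B held the only copy of the window called higher with Nutlin, a MIRb SINE fragment at chr9:22003925-22004157. It stood at 1.62 and 1.98 CPM in DMSO, 5.82 and 5.31 in Nutlin and 2.15 in the untreated sample, so both Nutlin libraries were above the others (log2 1.62 ± 0.31), and the call held in all 9 alternatives. With 5-FU it was not called, with 4.58 and 3.91 CPM in DMSO 6 h against 2.79 and 5.13, 4.08 and 3.44 against 4.12 and 0.87 at 12 h, and 3.93 and 2.92 against 2.32 and 3.10 at 24 h. Its log2 changes there were -0.09 ± 0.51, -0.59 ± 0.61 and -0.32 ± 0.53. The other copy of CDKN2B, an AluSx, was tested in the 5-FU table alone and not called.

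**Figure D4:**
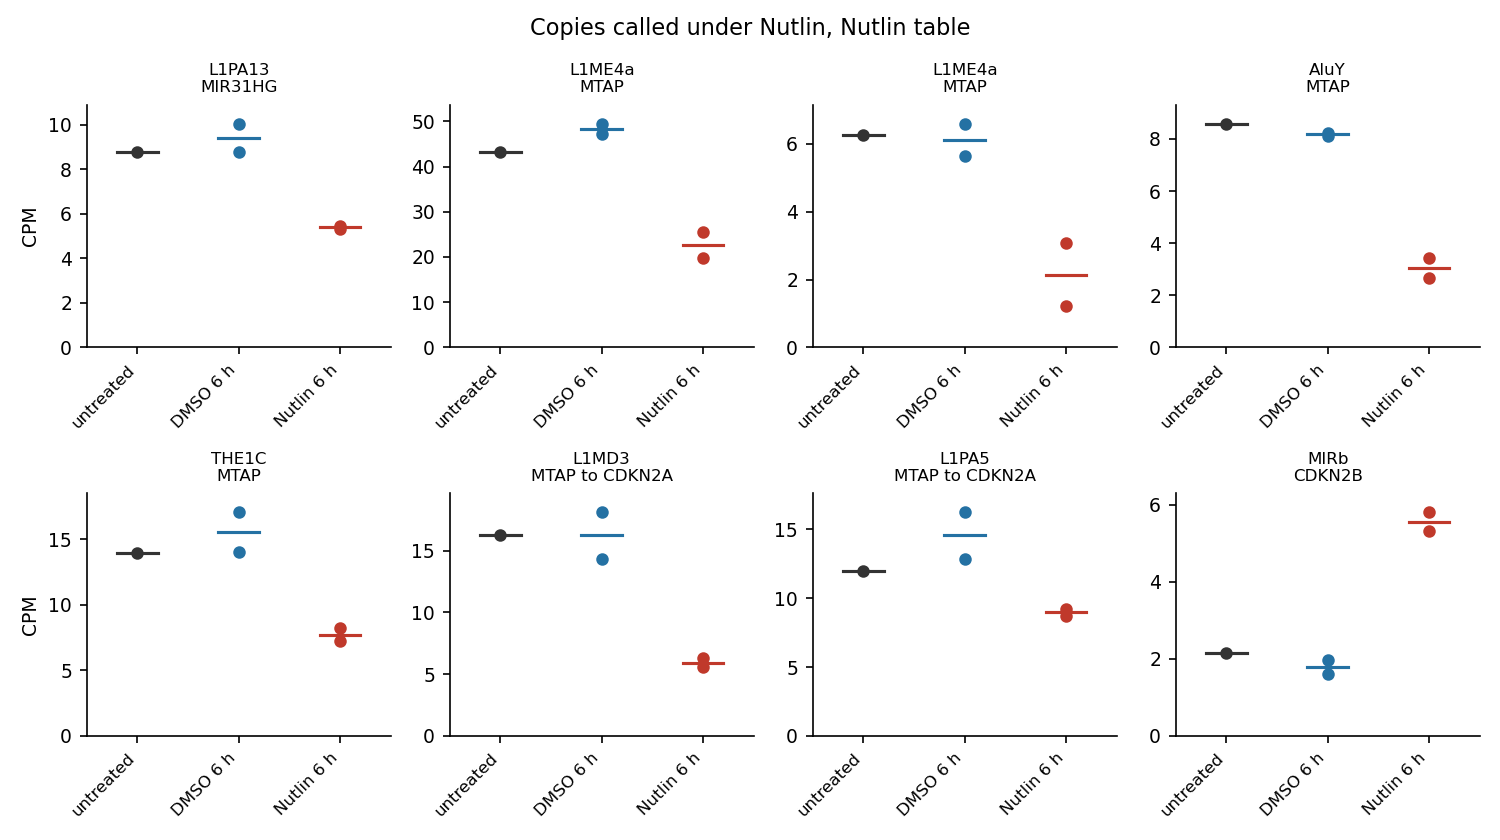
CPM per library of the Nutlin table (points, with group means as bars) for the 8 window copies called after Nutlin at 6 h, in order along the window, with Nutlin in red, DMSO in blue and the untreated sample in black. The 7 lower copies have both Nutlin libraries below both DMSO libraries, and the MIRb copy in CDKN2B has both above. The copies were picked by calls from these same libraries, so their separation is a description.

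CDKN2B-AS1 gave few counts. Beyond CDKN2B, its 109 copies in the 5-FU table held 514 counts, 9 to 67 in a library, and none was tested. Their summed level was 16.8 and 14.9 CPM untreated, 5.20 and 8.98 in DMSO 6 h against 5.36 and 4.18 in 5-FU, 16.7 and 8.41 against 5.88 and 2.61 at 12 h, and 11.8 and 9.98 against 4.40 and 6.66 at 24 h. In the Nutlin table it was 4.54 and 4.90 CPM in DMSO and 2.47 and 2.41 in Nutlin. The drug pairs were below their DMSO pairs with Nutlin and at 12 and 24 h of 5-FU, and the 6 h pairs overlapped. These sums were not tested, and pairs can separate by chance. Of the 50 kb bins described next, the one from 22000000, which also holds CDKN2B, was not called with either drug. Its log2 change with Nutlin was 0.39 ± 0.25, and its adjusted p (edgeR) was 0.093 at 12 h and 0.67 at 24 h of 5-FU. The bin from 22050000 was not called under 5-FU (0.501 at 12 h, 0.081 at 24 h) and not tested with Nutlin. Before CDKN2B, 10 copies held 105 counts, and past the end of CDKN2B-AS1 12 copies held 8.

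Summing all copies in bins of 50 kb gave a coarser view that also uses copies too low to test alone. After Nutlin 3 of 9 tested bins were called, all lower, where 12.7% of all bins were called (6.55% higher, 6.16% lower). They lay in MIR31HG (chr9:21500000-21550000, log2 -0.54 ± 0.14), in MTAP (chr9:21800000-21850000, -0.66 ± 0.21) and across the end of MTAP (chr9:21850000-21900000, -0.99 ± 0.15), and 1 bin was called without DMSO replicate 1 or without either Nutlin library. No bin of 11 was called at 6 h of 5-FU by edgeR, with 3 at an unadjusted p under 0.05 and none by DESeq2, where 0.321% of all bins were called (0.278% higher, 0.0428% lower). At 12 h 4 of 11 were called, against 26.3% of all bins (12.3% higher, 14% lower), and at 24 h 3 of 11, against 8.87% (4.57% higher, 4.3% lower). The bin across the end of MTAP was lower at both times (-1.28 ± 0.23 and -0.96 ± 0.23), and the bin with the LTR run (chr9:21900000-21950000) was higher at both (2.13 ± 0.24 and 1.08 ± 0.23). The latter stood at 76.6 and 83.2 CPM in DMSO 12 h and 365 and 332 in 5-FU 12 h. In MIR31HG the bin from 21500000 was lower at 12 h (-1.001 ± 0.23) and the bin from 21450000 was higher at 24 h (0.99 ± 0.23). The bin from 21550000, which holds the last part of the MIR31HG interval and the start of the gap after it, was lower at 12 h (-1.47 ± 0.28). Against untreated, the DMSO mean was higher in 3 of 11 bins (7.78% of all bins called, 3.48% higher, 4.3% lower), namely those from 21400000 in the interferon alpha flank, from 21500000 in MIR31HG, and from 21550000, and in 1 bin without untreated replicate 2. At 24 h 1 bin was called without DMSO replicate 2. No bin was called for the difference between the 24 h and 6 h changes by edgeR, with 1 at an unadjusted p under 0.05 and none by DESeq2, where 1.19% of all bins were called (0.18% higher, 1.01% lower).

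Copies at the edges of the window had almost no counts. In the 5-FU table the copy just inside the start was a MIRb with 0 counts (chr9:21400233-21400371) and the one just outside an AluSx1 with 1 count (chr9:21399517-21399829). At the other end an L1MEf with 1 count (chr9:22149537-22149815) lay inside and an AluY with 0 counts (chr9:22150571-22150870) outside.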

How the data were processed

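Libraries of total RNA from IMR90 cells were made with the Illumina TruSeq Stranded Total kit, per the labels' protocols. The authors deposited raw counts per annotated repeat copy in 2 tables, 1 for the Nutlin and 1 for the 5-FU experiment. The submitters' processing notes name hg19, Trimmomatic 0.32, cutadapt 1.10, Bowtie2, edgeR and DESeq2. The repeat annotation, the strand setting and the handling of reads that match several copies are not given in the sources used here. The Nutlin table repeats 1 set of values in its pair of untreated columns, which therefore entered as 1 sample.

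Counts of each table were fitted once over all its groups with edgeR 4.0.16 (R 4.3.3, limma 3.58.1), with library sizes of all copies, filterByExpr and TMM, leaving 21328 Nutlin and 63602 5-FU copies. Quasi-likelihood tests were adjusted over the whole table, and a call is an adjusted p under 0.05. Each SE was computed as the size of the log2 change over the square root of the test's F statistic. It is therefore no measure of spread separate from the test. The same was done for 50 kb bins by a copy's midpoint. Interval sums use all copies, with no filter and no test. Alternatives were DESeq2 1.42.0, library size alone, no filter, a replicate block, only the compared libraries, each library left out, and the DMSO 6 h and 24 h libraries as control at 12 h. Comparing each DMSO group alone with untreated was added after seeing the data. The fit was checked on simulated counts, where small changes of single copies were mostly missed. In the 5-FU table, simulated at 24 h, many large changes of single copies were missed as well. A copy that was not called may therefore still have changed. False calls among single copies exceeded the nominal rate. Tables and plots used Python 3.11.15, pandas 2.3.3 and matplotlib 3.10.9.

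The named copies are the most abundant tested copy of each interval, those called in at least 2 drug comparisons, up to 3 called per direction and drug comparison by smallest p, and the copies nearest the window edges. Others are marked as named after their values were seen. The window, its intervals and these lists were chosen with earlier results of these data known.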

Additional observations from a re-analysis of the deposited data

Results flagged for a closer look

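The change of the HERVH-int copy in MIR31HG (chr9:21488395-21491043) under 5-FU differed between 24 h and 6 h by 3.09 on the log2 scale, by the test of the difference itself. The change was -0.63 ± 0.42 SE at 6 h and 2.46 ± 0.45 at 24 h. The call was lost without DMSO 6 h replicate 1, without DMSO 24 h replicate 2, without either 5-FU 6 h library, with only the libraries of the comparison in the fit and without the filter on low counts. Its cause was not tested.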

How the results depend on the processing

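No direction of a named call reversed: of 28 called results of named copies 15 held their call under every alternative run and 28 kept their sign. Of the counts of called copies and bins, 98 of 132 values under an alternative stayed within 1.5 times the main count. For copies, Nutlin gave 5 with DESeq2, 5-FU at 12 h 15 with no filter, and 5-FU at 24 h 4 with only the compared libraries. The difference between 24 h and 6 h gave 0 with only the compared libraries, 2 with DESeq2 and 0 with no filter. DMSO against untreated gave 4 with no filter, 20 against DMSO 12 h alone and 0 against DMSO 24 h alone. For bins, Nutlin gave 5 with library size alone, 5-FU at 6 h 2 and at 24 h 0 with only the compared libraries, and DMSO against untreated 5 with library size alone, 6 with only the compared libraries and 0 against DMSO 24 h alone. With 1 library left out, copies called ranged from 7 to 9 for Nutlin, 11 to 16 at 12 h (main 27), 4 to 12 at 24 h, 0 to 4 for the difference and 1 to 11 for DMSO against untreated. Bins ranged from 1 to 2 for Nutlin, 1 to 4 at 24 h and 1 to 3 for DMSO against untreated. The shares of all copies or bins called under the alternatives are not given here. The cause of these shifts was not tested, other than that a fit without a library or a group has fewer samples. Same-numbered replicates share only a number in the labels, and their differences correlated across copies at -0.003, -0.003, -0.016 and 0.14 for Nutlin and 5-FU at 6, 12 and 24 h. With a replicate block the copies called were 8, 1, 25 and 10 for Nutlin and 5-FU at 6, 12 and 24 h, 1 for the difference and 10 for DMSO against untreated, and the bins 2, 0, 4, 3, 0 and 3. The 24 h call of MER50 was lost under the block. Counts are read counts without molecular identifiers, and copies under about the filter's level could not be compared at this depth.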
